A study of Mus musculus with 48 samples.

Results

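The genes for 10 complement components that the liver makes were followed across 8 groups of mice: C3, C4a, C4b, Hc, C6, C8a, C8b, C9, Cfb and Mbl2. They were chosen by name, as a list, with earlier results of these data known. Counts of the 10 genes that pass a test are therefore set beside the shares of all tested genes as a description only. The list was matched by symbol to the count table, in which all 10 were found among 55414 genes. Liver RNA-seq was made from 48 mice of the FCG (core genotypes) model on a C57BL/6 background, 6 in each group, in which the testis-determining gene Sry is missing from the Y chromosome (written XY-) and is supplied, or not, by a transgene (SryTg). Gonad type is thereby separated from the sex chromosomes. XX mice (genotype XX) and XY mice (genotype XY-) without the transgene had ovaries (XX Ov, XY Ov), and those with it (XX;SryTg and XY-;SryTg) had testes (XX Te, XY Te).

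One cohort of 24 mice kept its gonads (Intact) and another of 24 was gonadectomized at 75 days of age (GDX). All mice ate a high-fat diet (HFD) with 60% of calories from fat from 15 to 17 weeks of age, for 11 weeks in Intact and 15 weeks in GDX mice per the sample descriptions. The methods text of the study gives slightly different diet lengths for both cohorts. The labels name no group on another diet and no sham-operated group. Wherever GDX and Intact mice are set against each other, the effects of surgery, diet length, age and cohort cannot be told apart, and no hormone level was analysed here. Per the labels every mouse was a separate sample and gave 1 library. A rise or fall after surgery is therefore a difference between groups of different mice.

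Complement is a cascade of plasma proteins that marks microbes and damaged cells. It starts by the classical pathway (antibody and C1), the lectin pathway (mannose-binding lectins, which include the Mbl2 product, with MASP proteases) or the alternative pathway (in which the protease factor B, from Cfb, forms a convertase with C3). The first pair cut C4, all of them cut the central component C3, and the terminal components C5 (from Hc), C6, C7, C8 and C9 then assemble into a pore in the target membrane. Hepatocytes are the main source of most of these plasma proteins. In mice, C4b encodes C4, and C4a encodes its near-identical neighbour, the sex-limited protein Slp, which is classically known as an androgen-dependent protein of male mice.

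Each mouse gave between 13071874 and 20045141 reads on genes, so that 3 reads, taken as the smallest level shown, equalled 0.15 to 0.23 CPM, the count scaled to a common library size. Such floors cover counting error only. All 10 genes lay above 3 reads in all 48 mice and passed the filter on low counts that left 15414 genes for testing. Xist and 4 Y-linked genes placed 0 mice against their labels. The 8 hepatocyte markers examined were detected in every mouse and summed to 79672 to 151007 CPM. Reads outside genes made up 3.47% to 6.20% of the reads of Intact libraries and 8.52% to 11.3% of GDX libraries, a difference that moved with the cohort and whose part in the cohort comparisons was not tested beyond the offsets for gene length and GC content described with the ovariectomy effect. In whole liver, fewer cells of a type and less RNA per cell cannot be told apart.

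None of the 10 genes lies on a sex chromosome. C3, C4a, C4b and Cfb are on chromosome 17, with C4b (34865325 to 34880827), C4a (34946037 to 34960409) and Cfb (34993319 to 34999463, all on the minus strand of build NCBIM37) close together in the major histocompatibility complex. C6 and C9 are on chromosome 15, C8a and C8b on chromosome 4, Hc on chromosome 2 and Mbl2 on chromosome 19. Reads that fit both C4a and C4b could not be assigned to one of them, so that the split between these genes is uncertain. C4a itself was annotated as a processed transcript in the NCBIM37 gene models and as a transcribed pseudogene in RefSeq, neither of which is a protein-coding class. Its values are therefore levels of RNA only, and Slp protein was not measured. In the same models 79.5% of the exonic bases of Cfb also lie in Gm20547, a gene on the same strand that is listed with 0 reads in every mouse, and Cfb was counted with only 18 to 129 reads per mouse. The Cfb values are therefore those of the part of the gene that was counted.

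Per kilobase of exonic length and averaged over the 48 mice, C3 was the highest of the 10 at 1537 CPM per kb. Mbl2 followed at 388, C4b at 200.1, Hc at 149, C9 at 135 and C8a at 95.0 CPM per kb. C8b stood at 40.4 and C6 at 15.2 CPM per kb, and the lowest values were C4a at 2.50 and Cfb at 1.43 CPM per kb. The Cfb value divides by its full exonic length, of which 79.5% also lies in Gm20547. It can thus be too low, and the order of C4a and Cfb is uncertain. Together the 10 genes took 0.402% to 1.10% of the reads of Intact mice and 1.17% to 2.0% of the reads of GDX mice, without overlap between the cohorts. This sum mainly follows C3, which averaged 7888 CPM over the 48 mice against 1139 CPM for C4b, the next highest. It does not describe each of the 10 genes.

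**Figure D1:**
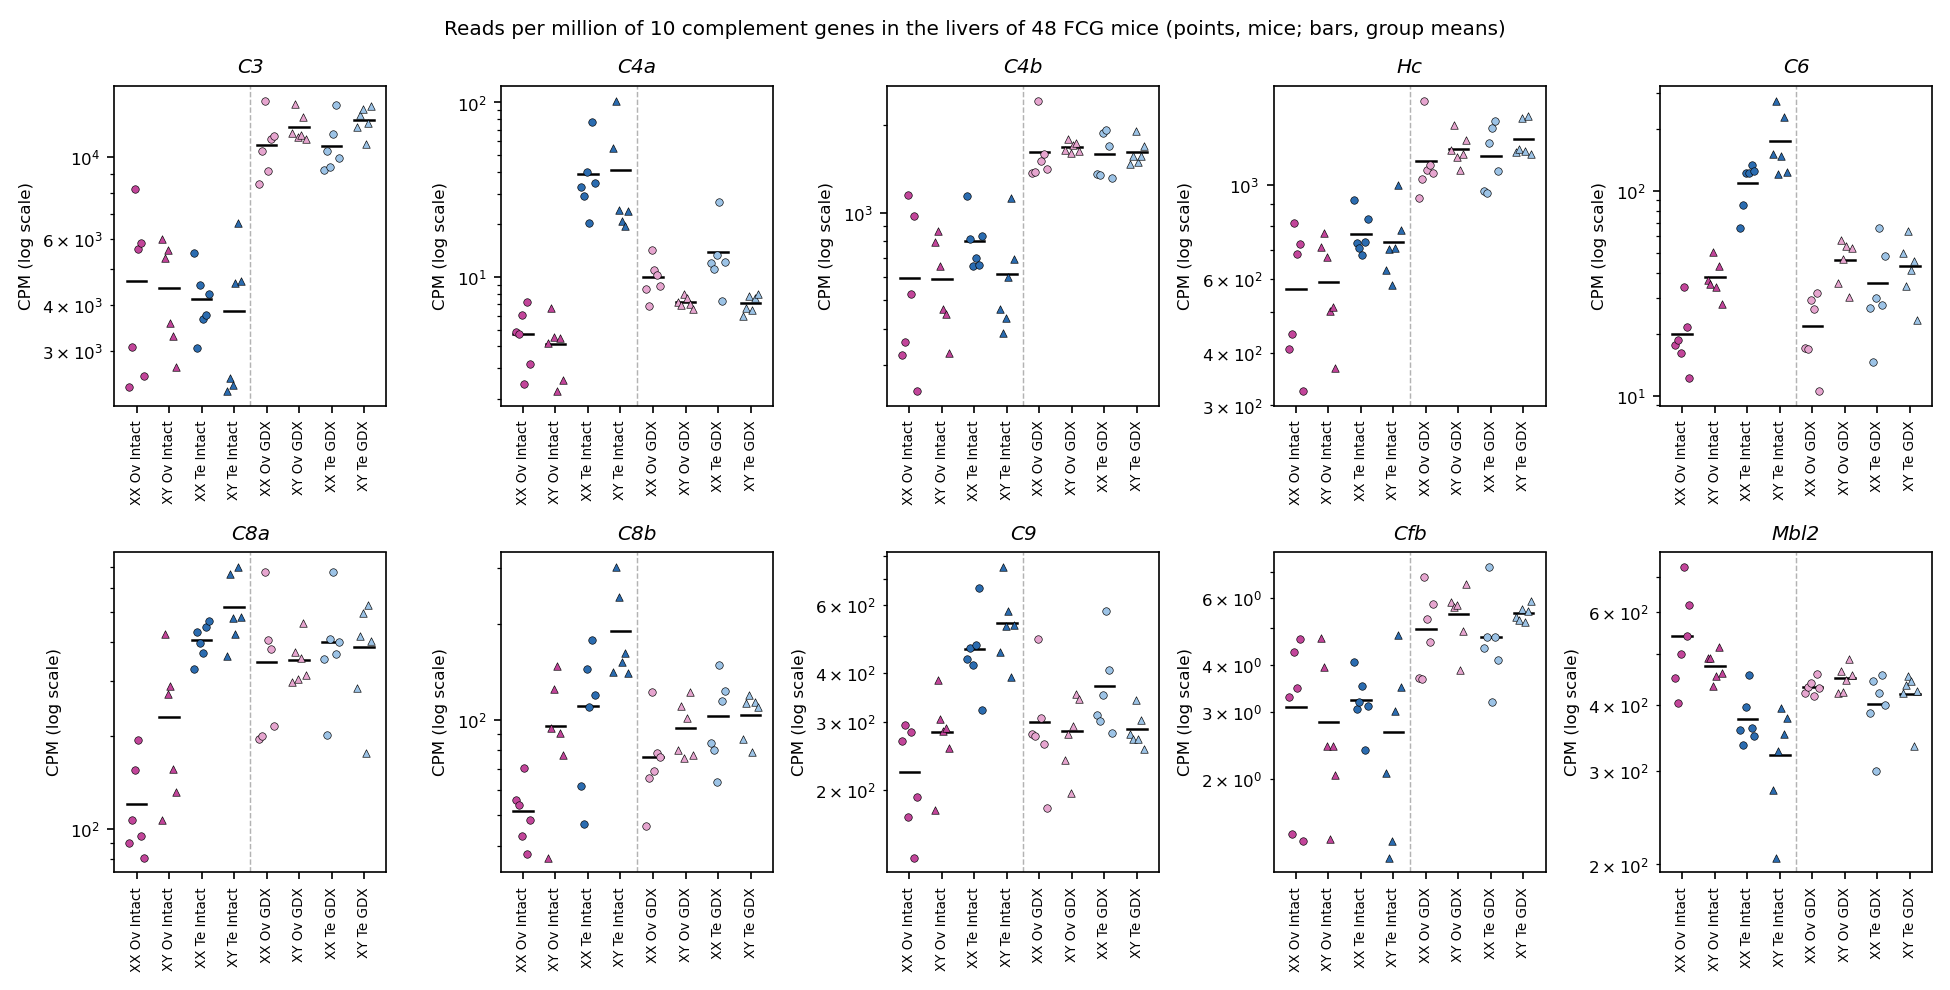
CPM (log scale) of each of the 10 complement genes in the 48 mice, by group; circles are XX and triangles XY mice, and black bars are group means (n = 6). C4a and C6 were high in both Te Intact groups, with all 12 Te Intact mice above all 12 Ov Intact mice, whereas C3 and C4b were higher in all 24 GDX mice than in any Intact mouse.

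C4a had the largest difference between gonad types of the 10 genes. In Intact mice with testes its CPM had a lowest value of 20.3, a median of 33.7 and a highest of 77.4 in XX Te, and 19.6, 23.9 and 103 in XY Te. In Intact mice with ovaries the corresponding values were 2.45, 4.79 and 7.21 CPM in XX Ov, and 2.21, 4.34 and 6.64 CPM in XY Ov. The mice with testes thus lay above those with ovaries without overlap in either chromosome complement. After gonadectomy C4a stood at 7.32, 12.1 and 27.0 CPM in XX Te GDX and at 6.0, 7.10 and 8.01 CPM in XY Te GDX. In former ovary bearers it stood at 6.83, 9.58 and 14.3 CPM in XX Ov GDX and 6.52, 7.11 and 8.03 CPM in XY Ov GDX. The 4 GDX groups overlapped one another, and all but 1 of the castrated mice lay under the lowest Te Intact mouse.

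C6, which joins the C5 fragment in the first step of pore assembly, was also highest in the Te Intact groups. Its lowest, median and highest CPM were 65.8, 122 and 135 in XX Te Intact and 121, 150 and 277 in XY Te Intact. In XX Ov Intact they were 12.2, 18.2 and 34.1 CPM, and in XY Ov Intact 28.0, 35.8 and 50.5 CPM. Both Te Intact groups lay above both Ov Intact groups, and within each gonad type XY mice had the higher mean. In GDX mice C6 read 10.5, 21.9 and 31.7 CPM in XX Ov, 30.2, 49.6 and 57.8 in XY Ov, 14.5, 28.8 and 66.1 in XX Te and 23.6, 43.4 and 63.6 in XY Te. For C6, 11 of the 12 Te Intact mice exceeded all 36 mice of the other 6 groups, as 7 of 12 did for C4a.

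The partners of C6 in the pore are C8a and C8b, which encode the alpha and beta chains of C8, and C9, which polymerizes into the ring of the pore. The 250 bases upstream of the RefSeq gene start (build GRCm38.p6) of these genes and of C6 are shown because these 4 genes had the largest gonadal differences of the terminal genes among the 10. Capitals mark matches to any of 3 motifs searched on both strands: CCAAT, bound by NF-Y, TGTTCT, a core hexamer of androgen receptor sites, and TTCNNNGAA, a STAT5 site. The sequences read 5′ to 3′ on the strand of the gene, from chr15:4726960-4727209 (C6, plus strand), chr4:104876399-104876648 (C8a, minus strand), chr4:104766067-104766316 (C8b, plus strand) and chr15:6445096-6445345 (C9, plus strand).
C6: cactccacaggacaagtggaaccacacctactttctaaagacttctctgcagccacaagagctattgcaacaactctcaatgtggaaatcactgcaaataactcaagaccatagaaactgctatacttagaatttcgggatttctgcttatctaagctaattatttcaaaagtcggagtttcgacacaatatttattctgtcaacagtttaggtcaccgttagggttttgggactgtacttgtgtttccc
C8a: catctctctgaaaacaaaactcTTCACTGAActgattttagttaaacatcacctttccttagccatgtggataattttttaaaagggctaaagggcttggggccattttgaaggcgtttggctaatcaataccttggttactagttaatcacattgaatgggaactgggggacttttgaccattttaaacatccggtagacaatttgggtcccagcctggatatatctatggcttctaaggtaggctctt
C8b: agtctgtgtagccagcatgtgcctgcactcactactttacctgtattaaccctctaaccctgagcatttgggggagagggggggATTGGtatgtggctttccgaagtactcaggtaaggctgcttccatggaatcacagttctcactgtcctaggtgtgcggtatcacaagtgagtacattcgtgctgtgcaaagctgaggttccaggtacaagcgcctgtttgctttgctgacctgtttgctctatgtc
C9: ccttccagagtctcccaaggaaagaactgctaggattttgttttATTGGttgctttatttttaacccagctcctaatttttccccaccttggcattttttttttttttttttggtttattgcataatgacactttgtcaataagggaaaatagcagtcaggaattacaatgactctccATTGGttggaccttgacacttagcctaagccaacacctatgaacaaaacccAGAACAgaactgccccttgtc

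C9 held the CCAAT letters 2 times and the TGTTCT letters once, in each case read on the opposite strand, C8b held CCAAT once and C8a held the STAT5 letters once. Of all 32851 mouse promoters of this length in the same table, 33.8% held CCAAT, 16.1% TGTTCT and 7.02% TTCNNNGAA. Of the 7 complement genes with a promoter in the table, 2 held CCAAT, 1 held TGTTCT and 1 held TTCNNNGAA. C4a, C4b and Cfb had no entry. A match describes these letters only.

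To ask what intact gonads do to hepatic complement mRNA, Ov Intact mice (n = 12) were compared with Te Intact mice (n = 12). Of the 10 genes, 6 were lower in mice with ovaries (C4a, C6, C8a, C8b, C9 and Hc), 1 was higher (Mbl2) and 3 did not pass the test (C3, C4b, Cfb). At an adjusted p under 0.05, 25.3% of all tested genes were called in this comparison, 14.1% as higher and 11.3% as lower. The lower genes included the 5 of the 10 that belong to the terminal pathway. The median log2 fold change was -0.70 over the 10 genes and 0.04 over all tested genes.

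C4a was 9.23-fold lower in mice with ovaries (log2 fold change -3.21 ± 0.25 SE, adjusted p = 9.6e-14, edgeR quasi-likelihood test). C6 was 5.11-fold lower (-2.35 ± 0.19, adjusted p = 4.7e-13), and no mouse with ovaries reached a mouse with testes. C8a came next. Its CPM had a lowest value of 80.6, a median of 143 and a highest of 425 in the 12 Ov Intact mice, against 329, 440.4 and 701 in the 12 Te Intact mice. All but 1 of the Ov Intact mice lay below every Te Intact mouse, and the fold change was 2.83 (log2 -1.5 ± 0.20, adjusted p = 1.8e-07).

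C9 and C8b differed about as much as each other. C9 ranged from 134 through a median of 275 to 383 CPM in Ov Intact mice and from 322 through 469 to 751 CPM in Te Intact mice, again with 11 of 12 Ov Intact mice below all Te Intact mice (log2 -1.0 ± 0.15, adjusted p = 3.0e-06). C8b ranged from 36.6 through 63.0 to 147 CPM against 46.9 through 143 to 303 CPM, and the arms overlapped widely, with only 3 of 12 Ov Intact mice below all Te Intact mice (log2 -1.08 ± 0.20, adjusted p = 8.6e-05). Hc, which encodes C5, was lower by a smaller amount (log2 -0.40 ± 0.10, adjusted p = 0.0020), with a mean of 578 ± 170 CPM (SD) in Ov Intact and 751 ± 119 CPM in Te Intact mice.

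Mbl2, the recognition lectin, went the other way. It read 405, 491 and 731 CPM (lowest, median, highest) with ovaries and 206, 356 and 457 CPM with testes, and 8 of 12 Ov Intact mice lay above every Te Intact mouse (log2 0.54 ± 0.09, adjusted p = 3.1e-05). The central component C3 (log2 0.16 ± 0.15, adjusted p = 0.41), C4b (-0.26 ± 0.16, adjusted p = 0.22) and Cfb (0.00 ± 0.17, adjusted p = 1.0) did not pass. The C4b value passed (log2 -0.42, adjusted p = 0.021) when 1 mouse, XX Ov Intact 69572, was left out.

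**Figure D2:**
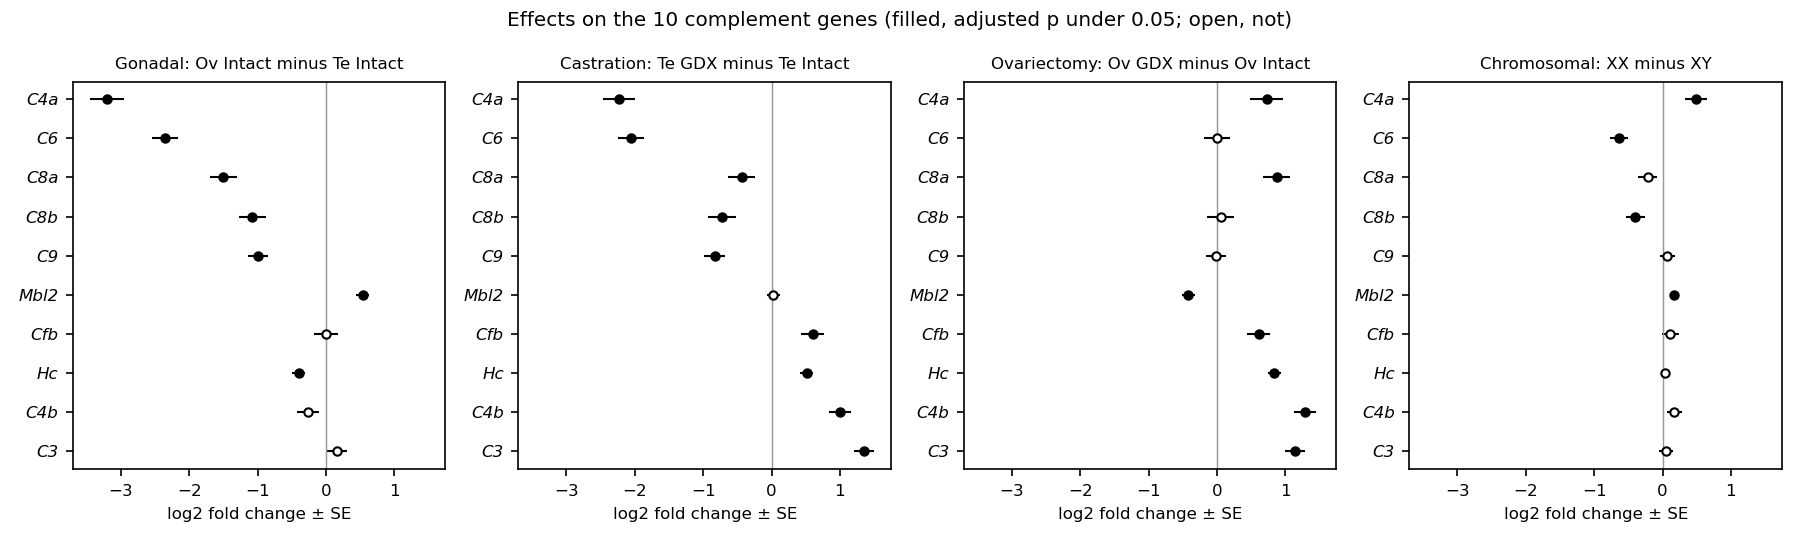
Log2 fold change with its standard error for each complement gene in the gonadal, castration, ovariectomy and chromosomal effects (one fit over 48 mice; filled points, adjusted p under 0.05). C4a, C6, C8a, C8b and C9 sit left of 0 in the gonadal and castration panels, and C3, C4b, Hc and Cfb sit right of 0 in both surgery panels.

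To ask what removal of testes changes, Te GDX mice (n = 12) were set against Te Intact mice (n = 12), which also served in the gonadal comparison. C4a, C6, C9 and C8b fell, C8a narrowly so, and C3, C4b, Cfb and Hc rose. Of the 10 genes, 9 were called (4 higher, 5 lower), where 63.3% of all tested genes were called (33.4% higher, 29.9% lower). Mbl2 did not pass (log2 0.03 ± 0.09, adjusted p = 0.80), but was called as higher with library totals as the only scaling (0.23, adjusted p = 0.013) and with length and GC offsets (0.43, adjusted p = 0.00079). The median log2 fold change was -0.20 over the 10 genes and 0.07 over all tested genes.

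C4a fell to a mean of 10.5 ± 5.81 CPM (SD) in Te GDX from 40.0 ± 26.0 CPM in Te Intact mice (log2 -2.24 ± 0.24, adjusted p = 2.2e-10). C6 fell to 39.3 ± 16.0 from 142 ± 58.0 CPM (log2 -2.05 ± 0.19, adjusted p = 9.3e-12), and 11 of 12 castrated mice lay below every Te Intact mouse for each gene. C9 fell by 0.83 ± 0.15 on the log2 scale (adjusted p = 9.6e-06) and C8b by 0.72 ± 0.20 (adjusted p = 0.0017). For C9, 8 of 12 castrated mice lay below all Te Intact mice, whereas for C8b none did. The C8a value (log2 -0.43 ± 0.19, adjusted p = 0.0488) was at the threshold: leaving out any one of 24 of the 48 mice gave an adjusted p between 0.0503 and 0.0956.

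C3 was higher in every castrated mouse than in any Te Intact mouse. It read 9231, 11753 and 13802 CPM (lowest, median, highest) in Te GDX mice and 2338, 4020 and 6638 CPM in Te Intact mice, so that the arms did not overlap (log2 1.35 ± 0.15, adjusted p = 5.8e-10). C4b behaved likewise, with 1315, 1568 and 1920 CPM against 386, 676 and 1138 CPM (log2 1.0 ± 0.16, adjusted p = 1.1e-06). Hc rose by 0.51 ± 0.10 (adjusted p = 1.5e-05), with 10 of 12 castrated mice above all Te Intact mice, and Cfb by 0.60 ± 0.17 (adjusted p = 0.0022).

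Ovariectomy was examined by setting Ov GDX (n = 12) against Ov Intact mice (n = 12), which the gonadal comparison also used. C3, C4b and Hc were higher in every Ov GDX mouse than in any Ov Intact mouse. C8a, C4a and Cfb were higher with overlap between the arms, and Mbl2 was lower. Of the 10 genes, 7 were called (6 higher, 1 lower), where 69.4% of all tested genes were called (36% higher, 33.4% lower). C6, C8b and C9 stood at log2 fold changes of -0.00 ± 0.18, 0.05 ± 0.20 and -0.01 ± 0.15 and were not called. The median log2 fold change was 0.67 over the 10 genes and 0.06 over all tested genes.

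C4b rose from a median of 497 to 1616 CPM (log2 1.29 ± 0.16, adjusted p = 4.6e-09), C3 from 4465 to 11340 CPM (log2 1.15 ± 0.15, adjusted p = 8.3e-09) and Hc from 595 to 1143 CPM (log2 0.84 ± 0.10, adjusted p = 8.9e-10). For each of these 3 genes all 12 Ov GDX mice lay above all 12 Ov Intact mice. How many of all tested genes separate as fully in this, the castration or the gonadal comparison was not counted, so that such separation is not shown to be particular to these genes. C8a rose by 0.87 ± 0.20 (adjusted p = 0.00015) with wide overlap, since only 2 of 12 Ov GDX mice lay above all Ov Intact mice. C4a rose by 0.73 ± 0.24 (adjusted p = 0.0071), from a mean of 4.42 ± 1.63 to 8.59 ± 2.28 CPM (SD), and Cfb by 0.61 ± 0.17 (adjusted p = 0.0015). Of the reads on C4a plus C4b, C4a held a mean of 0.831% in Ov Intact and 0.521% in Ov GDX mice. Whether C4b reads placed on C4a gave its rise was not tested.

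Mbl2 read 405, 491 and 731 CPM (lowest, median, highest) in Ov Intact mice and 417, 437 and 489 CPM in Ov GDX mice, so that the arms overlapped throughout (log2 -0.42 ± 0.09, adjusted p = 0.00011). With offsets for gene length and GC content, chosen after the data were seen because the cohorts differ in library makeup, the Mbl2 value turned to 0.15 (adjusted p = 0.24), C4a dropped to 0.22 (adjusted p = 0.49) and C9 passed as higher (0.51, adjusted p = 0.0011). The ovariectomy values of these 3 genes therefore rest on the scaling of the cohorts, whereas those of C3, C4b, Hc, C8a and Cfb were called with it as well. The Cfb call was lost with 1 surrogate variable in the fit (log2 0.31, adjusted p = 0.075).

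Both surgeries compare the same pair of cohorts. The difference between castration and ovariectomy is therefore free of any cohort shift that both gonad types share on the log2 scale. It also equals the gonadal effect minus the same comparison in GDX mice, so that it is not separate evidence from the gonadal effect. In this difference C4a (-2.97 ± 0.34, adjusted p = 2.8e-08), C6 (-2.05 ± 0.26, adjusted p = 4.6e-07), C8a (-1.31 ± 0.28, adjusted p = 0.0021) and C9 (-0.82 ± 0.21, adjusted p = 0.015) had negative values. Mbl2 had a positive value (0.45 ± 0.13, adjusted p = 0.032). For Mbl2 the castration and ovariectomy values were 0.03 and -0.42, and for C8a they were -0.43 and 0.87. The Mbl2 call was lost with no filter on low counts (adjusted p = 0.094), with length and GC offsets (adjusted p = 0.24) and without any one of 4 mice (adjusted p between 0.050 and 0.075). These were 5 of 10 genes, where 5.6% of all tested genes were called (2.78% higher, 2.82% lower). C8b had a value of -0.78 ± 0.28 (adjusted p = 0.089). The 4 genes that rose after both operations gave values of 0.21 ± 0.21 (C3, adjusted p = 0.54), -0.28 ± 0.22 (C4b, adjusted p = 0.43), -0.32 ± 0.14 (Hc, adjusted p = 0.14) and -0.01 ± 0.24 (Cfb, adjusted p = 0.99), so that no difference between the operations was shown for them.

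Among GDX mice, former ovary bearers (n = 12) and former testis bearers (n = 12) were compared to ask whether an effect of gonad type outlasted surgery. None of the 10 genes was called by edgeR, 0 of them at an unadjusted p under 0.05 and 0 by DESeq2, where 0.0908% of all tested genes were called by edgeR. The values of C4a (-0.24 ± 0.23), C6 (-0.30 ± 0.18), C8a (-0.19 ± 0.19), C8b (-0.30 ± 0.20) and C9 (-0.18 ± 0.15) had the sign of the gonadal effect at a small part of its size. C4a in this comparison read 6.52 to 14.3 CPM in Ov GDX and 6.0 to 27.0 CPM in Te GDX mice.

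A ratio within a library needs no scaling between cohorts, and the share of C4 reads (C4a plus C4b) that fell on C4a was therefore measured in each mouse. In Te Intact mice it ranged from 1.72% to 21.0%, with a mean of 6.20% ± 5.47 (SD, n = 12). It was 0.831% ± 0.350 in Ov Intact, 0.646% ± 0.306 in Te GDX and 0.521% ± 0.114 in Ov GDX mice. All 12 Te GDX mice and all 12 Ov Intact mice lay below all 12 Te Intact mice (two-sided permutation tests, p = 2e-05 each, the smallest the resamples can give, adjusted over 3 comparisons p = 3e-05). The ovariectomy difference, with 5 of 12 Ov GDX mice below all Ov Intact mice, had p = 0.0049 by the same permutation test. Both genes enter this ratio: C4b rose after either operation, which lowers the share by itself.

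**Figure D3:**
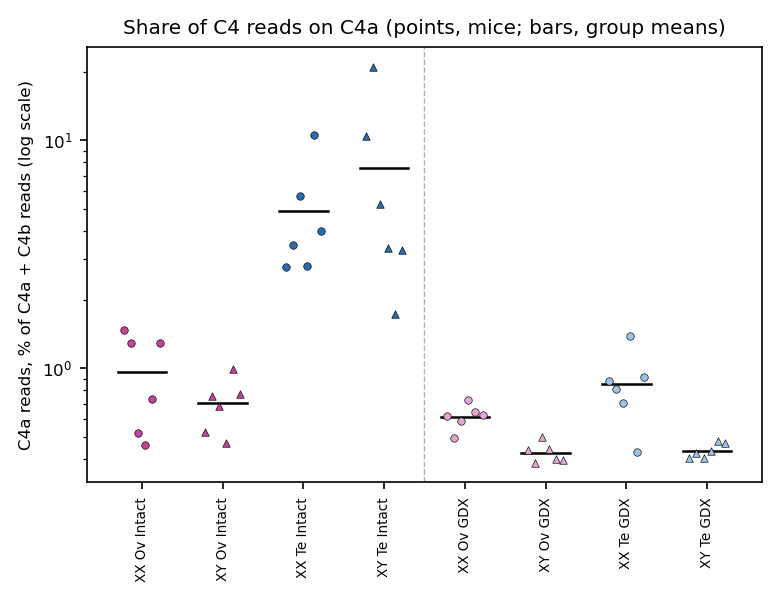
Reads on C4a as a percent of the reads on C4a plus C4b (log scale) in each mouse, with group means as bars (n = 6). The 12 Te Intact mice, from 1.72% to 21.0%, lie above every mouse of the other 6 groups, which reach 1.47%.

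To ask what the sex chromosomes do, the 24 XX mice were compared with the 24 XY mice over both gonad types and cohorts. C6 and C8b were lower in XX mice and C4a and Mbl2 were higher, by 1.13- to 1.55-fold. Only C6 was also called within each cohort on its own, as given below. Of the 10 genes, 4 were called (2 higher, 2 lower), where 36.7% of all tested genes were called (21.9% higher, 14.8% lower). The median log2 fold change was 0.06 over the 10 genes and 0.05 over all tested genes.

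C6 was lower in XX by 0.64 ± 0.13 on the log2 scale (adjusted p = 0.00011), and its mean was lower in the XX than in the XY group of the same gonads and surgery in 4 of 4 pairs. In Ov Intact mice, 5 of 6 XX mice lay below all XY mice for C6. C8b was lower by 0.40 ± 0.14 (adjusted p = 0.021). C4a was higher by 0.49 ± 0.17 (adjusted p = 0.017), a call lost without XY Te Intact mouse 70314 (log2 0.42, adjusted p = 0.0503). Mbl2 was higher by 0.17 ± 0.07 (adjusted p = 0.033), a call lost without any one of 8 mice, with adjusted p up to 0.23. With library totals as the only scaling, with no filter on low counts, or with length and GC offsets, the 2 lower genes were called and the 2 higher ones were not.

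Within Intact mice the XX minus XY values were -0.78 ± 0.18 for C6 (adjusted p = 0.0026), -0.82 ± 0.20 for C8b (adjusted p = 0.0037) and -0.61 ± 0.20 for C8a (adjusted p = 0.033), and 10.7% of all tested genes were called. Within GDX mice C6 stood at -0.49 ± 0.18 (adjusted p = 0.035), C4a at 0.89 ± 0.24 (adjusted p = 0.0025) and C9 at 0.40 ± 0.15 (adjusted p = 0.033), where 34.3% of all tested genes were called. C4a was not called within Intact mice (0.09 ± 0.23, adjusted p = 0.85), nor C8b within GDX mice (0.02 ± 0.20, adjusted p = 0.96). Mbl2 was called neither within Intact (0.22 ± 0.09, adjusted p = 0.12) nor within GDX mice (0.13 ± 0.09, adjusted p = 0.32). The difference between the cohorts was tested for each gene, and 0 of 10 passed by edgeR (4 at an unadjusted p under 0.05, 0 by DESeq2), where 2.12% of all tested genes passed. The nearest was C9 (0.66 ± 0.21, adjusted p = 0.083), which passed without either of 2 mice (XY Te Intact 89033, log2 0.71, adjusted p = 0.038, or XX Te Intact 95271, log2 0.74, adjusted p = 0.045).

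The gonadal and surgery effects were also taken within each chromosome complement. In XY mice castration lowered C4a by 2.88 ± 0.34, C6 by 2.37 ± 0.27, C9 by 1.26 ± 0.22, C8b by 1.24 ± 0.28 and C8a by 0.76 ± 0.28 on the log2 scale, each with an adjusted p under 0.05. In XX mice the values were -1.59 ± 0.32 for C4a and -1.73 ± 0.27 for C6, both called, and -0.40 ± 0.21 for C9, -0.21 ± 0.28 for C8b and -0.11 ± 0.28 for C8a, not called. In all, 5 of 10 genes were called in XX mice and 9 of 10 in XY mice, where 37.1% and 56.7% of all tested genes were called. The test of the difference, XX minus XY, passed for 0 of 10 genes by edgeR (3 at an unadjusted p under 0.05, 0 by DESeq2), where 2.21% of all tested genes passed. Its largest values were 1.29 ± 0.46 for C4a (adjusted p = 0.13), 1.03 ± 0.40 for C8b (adjusted p = 0.18) and 0.87 ± 0.30 for C9 (adjusted p = 0.12). A different response to castration by chromosome complement was thus not shown for these genes.

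The gonadal effect ran from -2.97 ± 0.35 in XX to -3.45 ± 0.35 in XY for C4a and from -2.41 ± 0.27 to -2.30 ± 0.27 for C6, with 6 of 10 genes called in XX mice and 7 of 10 in XY mice, where 5.82% and 15.5% of all tested genes were called. The difference passed for 0 of 10 genes by edgeR or DESeq2 (0 at an unadjusted p under 0.05), as it did for 0 of all tested genes by edgeR (989 at an unadjusted p under 0.05) and 2 by DESeq2. For ovariectomy 0 of 10 passed as well (1 at an unadjusted p under 0.05, 0 by DESeq2), with 0 of all tested genes by edgeR (637 at an unadjusted p under 0.05) and 5 by DESeq2. Ovariectomy gave 6 calls among the 10 genes in XX and 5 in XY mice, where 55.1% and 59.4% of all tested genes were called. C8a had the largest ovariectomy difference, with 1.35 ± 0.28 in XX and 0.39 ± 0.28 in XY mice.

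**Figure D4:**
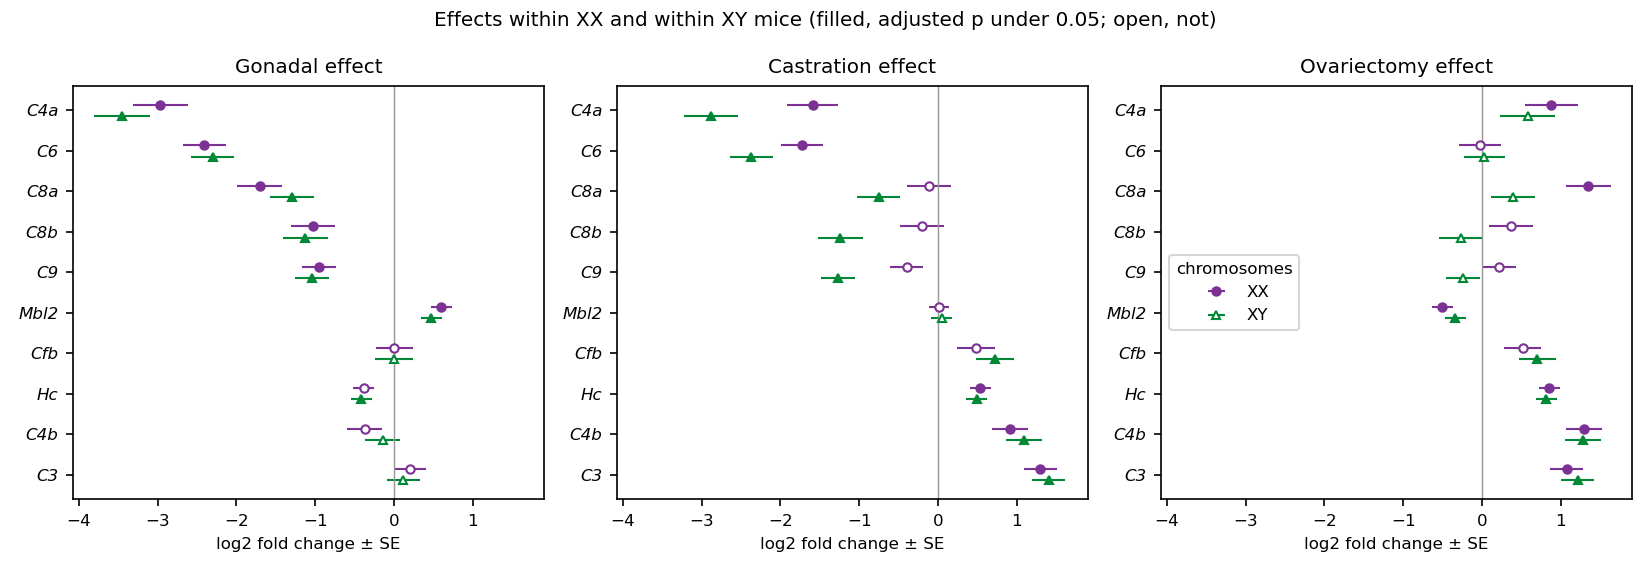
Log2 fold change with its standard error in XX (circles) and XY mice (triangles) for the gonadal, castration and ovariectomy effects; filled points have an adjusted p under 0.05. C4a, C8b and C9 lie further left in XY than in XX mice after castration, a difference that did not pass its test for any of the 10 genes.

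The rest of the pathway was read from a list of 41 other complement genes, of which 40 matched the table and 38 were tested. In the gonadal comparison 8 were higher with ovaries and 5 lower, and in the castration comparison 16 rose and 13 fell, while after ovariectomy 15 rose and 14 fell. Of all tested genes 25.3% (gonadal), 63.3% (castration) and 69.4% (ovariectomy) were called. The median log2 fold changes of the 38 complement genes were 0.08, 0.16 and 0.06 for the gonadal, castration and ovariectomy effects. Unlike the terminal genes above, the gene for the third chain of C8, C8g, was not called between Intact mice (log2 -0.00 ± 0.15, adjusted p = 0.99), and it fell after castration by 0.73 ± 0.15 and after ovariectomy by 0.87 ± 0.15. C7, the remaining terminal gene, was low (0.13 to 1.60 CPM in Intact mice) and was lower with ovaries by 0.73 ± 0.25 (adjusted p = 0.028).

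In the alternative pathway, Cfd, which encodes the protease factor D that activates factor B and is best known from fat cells, was lower with ovaries (log2 -3.86 ± 0.61, adjusted p = 5.9e-06) and lower after castration (-3.28 ± 0.60, adjusted p = 9.7e-06). It was low, with medians of 4.32 CPM in Te Intact and 0.23 CPM in Ov Intact mice. In the classical pathway the protease genes C1ra and C1s1 rose after castration (0.38 ± 0.09 and 0.40 ± 0.08) and ovariectomy (0.61 ± 0.09 and 0.72 ± 0.08), as C4b and C3 did. C1qb, a C1q chain, was higher with ovaries (0.83 ± 0.20), and C1qa rose after castration (0.65 ± 0.18), with group means of 34.2 (Intact) and 37.9 (GDX) CPM in XX Te and 44.8 and 130.0 CPM in XY Te mice. C2 rose by 0.43 ± 0.10 and 0.35 ± 0.10, with 40.8% of its exonic bases also in Gm20547. In the lectin pathway Mbl1, the other mannose-binding lectin, had a gonadal value of 0.00 ± 0.13 where Mbl2 was higher with ovaries, and it fell after castration (-0.84 ± 0.13) and ovariectomy (-0.81 ± 0.13).

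Of the 11 fluid-phase regulators, 5 rose and 4 fell after castration and 6 rose and 4 fell after ovariectomy, where 63.3% and 69.4% of all tested genes were called. Serping1, which encodes the C1 inhibitor, rose after castration and ovariectomy (log2 0.39 ± 0.10 and 0.61 ± 0.10), as did Vtn, for vitronectin (0.45 ± 0.10 and 0.53 ± 0.10), while C4bp, for the C4 binding protein, fell (-0.70 ± 0.12 and -0.53 ± 0.12). Clu was lower with ovaries (-0.40 ± 0.09) and Cpn1 was higher in XX mice (0.24 ± 0.06), as was C1s1 (0.27 ± 0.06). Of the 5 membrane regulators, 1 rose (Cd46) and 4 fell (Cd55, Cd59a, Cd59b, Cr1l) after either operation.

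Among the complement receptors, Vsig4, a C3 receptor of Kupffer cells that also stands in the Kupffer cell list, was higher with ovaries (0.81 ± 0.30) and fell after ovariectomy (-1.55 ± 0.30). Itgam, a chain of complement receptor 3, rose after castration (1.13 ± 0.35), with group means of 0.597 (Intact) and 0.578 (GDX) CPM in XX Te and 1.98 and 12.9 CPM in XY Te mice.

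**Figure D5:**
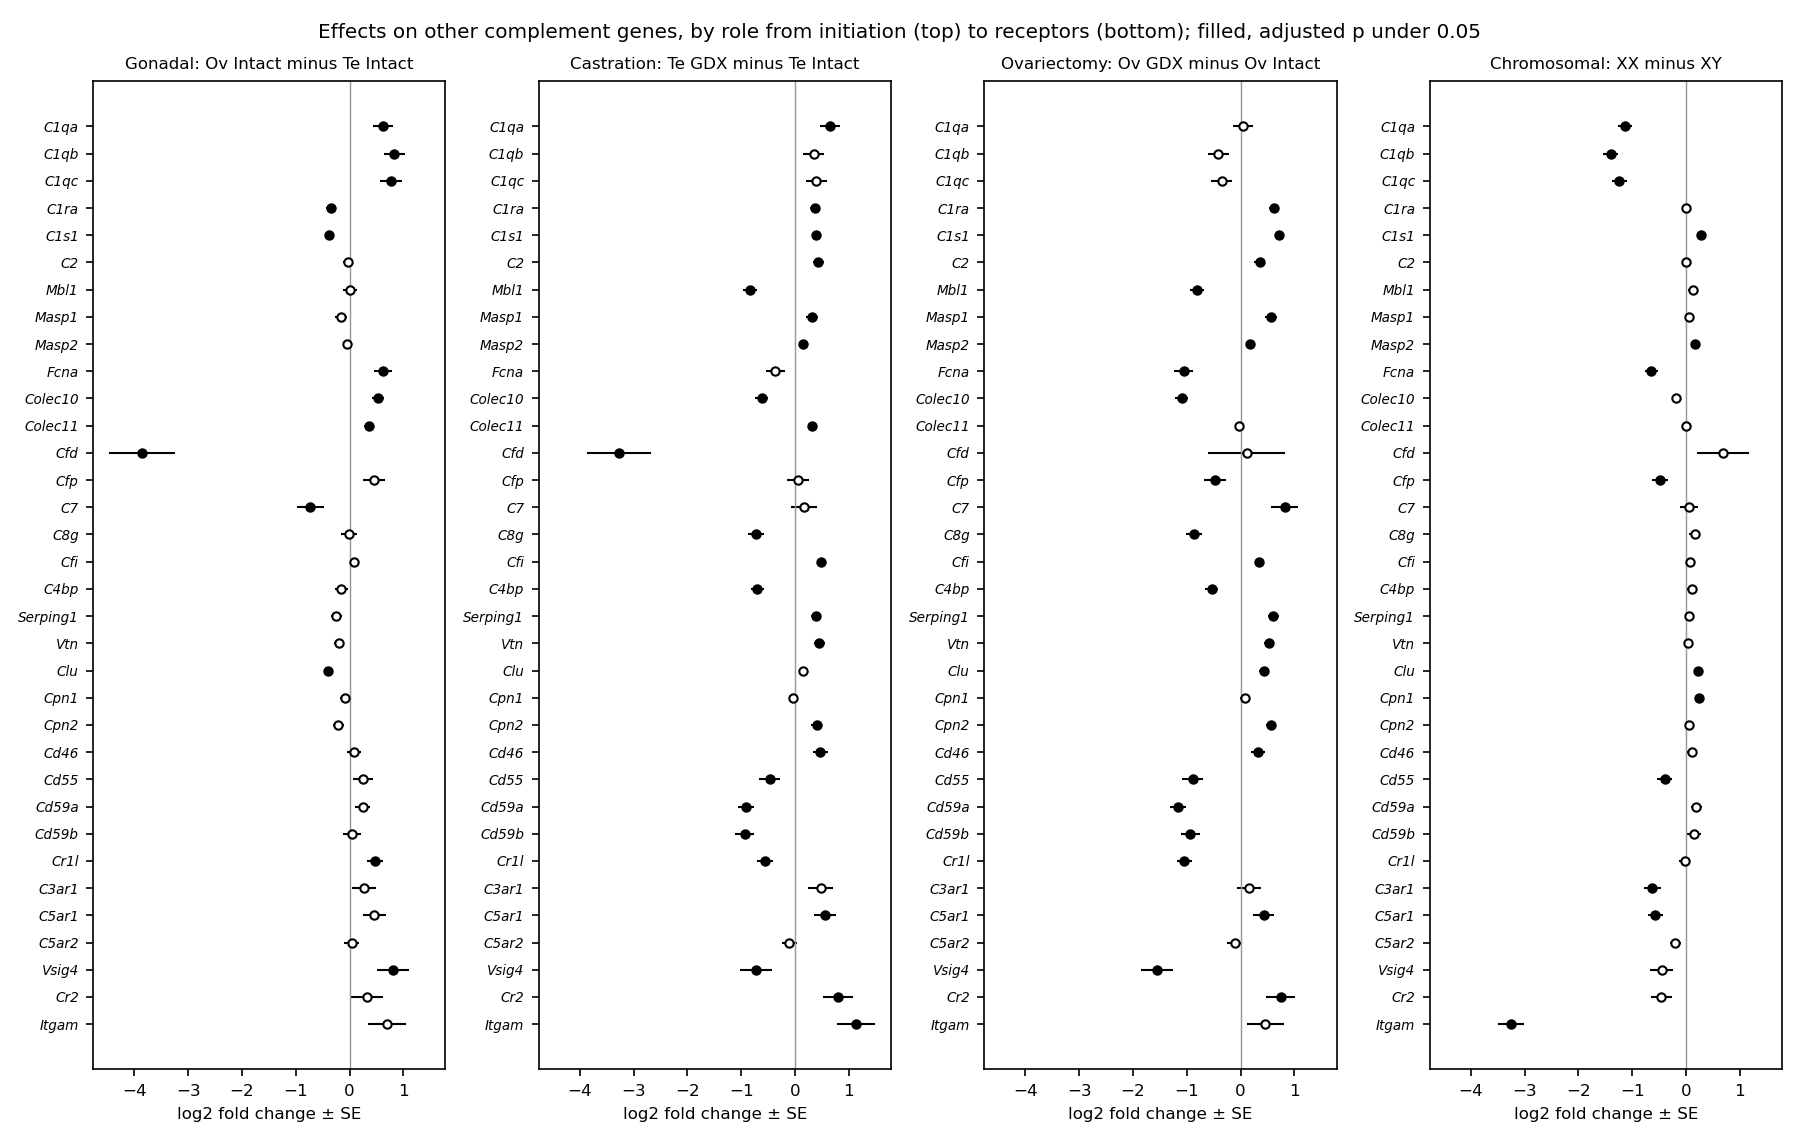
Log2 fold change with its standard error for other complement genes, ordered by role from initiation at the top to receptors at the bottom, in 4 effects (filled points, adjusted p under 0.05). Cfd lies at -3.86 in the gonadal and -3.28 in the castration panel, and the C1q genes and Itgam lie left of 0 in the chromosomal panel.

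In the chromosomal comparison 9 of the 38 genes were lower in XX mice (C1qa, C1qb, C1qc, Fcna, Cfp, Cd55, C3ar1, C5ar1 and Itgam) and 4 were higher (C1s1, Masp2, Clu and Cpn1), a count near the 36.7% of all tested genes called. The 3 chains of C1q, which macrophages secrete, were lower in XX than in XY mice by 1.13 ± 0.13 (C1qa), 1.40 ± 0.14 (C1qb) and 1.24 ± 0.14 (C1qc), and the receptor chain Itgam had a value of -3.25 ± 0.24 (adjusted p = 2.3e-15). Markers of other cells moved alongside: 6 of 6 neutrophil markers were lower in XX mice (median log2 -3.03), as were 6 of 7 Kupffer cell markers (median -1.19). The summed neutrophil markers ranged from 2.42 to 39.0 CPM in the XX groups and from 6.22 to 719 CPM in the XY groups, and Retnlg, Mmp8 and Cxcr2 were at or under 3 reads in 20, 22 and 25 of the 48 mice. S100a8 was so in 4 mice, S100a9 in 2 and Csf3r in 0. The summed Kupffer cell markers ranged from 149 to 833 CPM in the XX groups and from 278 to 1594 CPM in the XY groups, with no marker at or under 3 reads in any mouse. None of the 10 liver-made genes belongs to these lists, and the part of such cells in the values of C6, C8b, C4a and Mbl2 was not tested.

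Acute phase proteins, which the liver makes in inflammation together with C3 and factor B, were counted beside the rise of C3 and C4b. Of 15 listed, 11 rose and 1 fell after castration, 5 rose and 4 fell after ovariectomy, and 3 were higher with ovaries in Intact mice, where 63.3%, 69.4% and 25.3% of all tested genes were called. The largest changes were those of Lcn2 (log2 2.49 ± 0.50) and Saa2 (1.90 ± 0.57) after castration and of Saa3 (-2.19 ± 0.37) and Lcn2 (1.49 ± 0.48) after ovariectomy. Their summed level was 13419 to 28022 CPM in Intact and 18247 to 36038 CPM in GDX mice, and its part in the complement values was not tested. The hepatocyte markers summed to 79672 to 151007 CPM in Intact and 99041 to 136268 CPM in GDX mice, with 2 of 8 higher and 3 lower after castration and 2 higher and 4 lower after ovariectomy, near the same shares of all tested genes.

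Levels were also compared across the 48 mice. On the log2 CPM scale C4b and Hc had a Pearson correlation of 0.94, C3 and C4b of 0.93 and C3 and Hc of 0.86, a description to which the shift between the cohorts contributes. The tested genes most like C4a were Ttc39c (r = 0.90, Spearman's rho 0.82), Capn8 (0.89 and 0.72) and Cyp4a12b (0.88 and 0.76), and those most like C6 were Serpina1e (0.92 and 0.87), Scara5 (0.90 and 0.73) and Cyp4a12b (0.90 and 0.67), out of 13156 genes. All 5 were lower with ovaries and fell after castration. Their choice by likeness to C4a and C6 over the same 48 mice makes this direction likely in advance, so that the values are a description only. Serpina1e, an alpha-1 antitrypsin paralog, had log2 values of -5.09 ± 0.52 and -5.22 ± 0.53, and Ttc39c of -1.62 ± 0.12 and -1.18 ± 0.12. Cyp4a12b, a fatty acid hydroxylase with near-identical paralogs whose counts are uncertain, had values of -8.16 ± 0.55 and -6.33 ± 0.46.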

How the data were processed

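Liver RNA-seq of 48 mice was analysed, 1 library per mouse. The deposited values are counts of reads per gene, which the authors made with STAR 2.7.10a and genome build GRCm39 per their processing notes. The annotation release and the strand setting of the counting are not given in the sources used here. Reads in the 4 summary lines (unmapped, multimapping, outside genes, ambiguous), 25.5% to 42.3% of each library's total, were kept out of library sizes. Gene IDs were paired with symbols through vM1 gene models (NCBIM37) for 31020 of 55414 genes (56.0%), and lengths and overlaps come from these models. No column outside the 48 mice was present.

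Counts were tested with edgeR 4.0.16 in R 4.3.3 (filterByExpr, TMM, robust quasi-likelihood fit with a mean per group over all 48 mice, Benjamini-Hochberg adjustment over the 15414 genes tested, adjusted p under 0.05). Each effect is a contrast of group means: gonadal, Ov Intact minus Te Intact; former gonad, Ov GDX minus Te GDX; castration and ovariectomy, GDX minus Intact; chromosomal, XX minus XY. P-values measure the spread between mice. The C4a share was tested by permutation in scipy 1.17.1 (Python 3.11.15) with 100000 resamples. On simulated counts with 2-fold changes in the castration comparison, 174 of 196 changed genes (88.8%) were recovered among 15036 genes, and 12 of 186 calls were false. Far fewer genes changed there than were called in the data, and the groups did not differ otherwise. The simulation thus checks the fitting steps and does not give the error rate of the calls reported here. Alternatives were other scalings, DESeq2 1.42.0, other filters, fewer groups, a surrogate variable (sva 3.50.0), a fold threshold of 1.5, and each mouse left out. Offsets for length and GC content were added after the data were seen.

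The 10 genes and all lists were chosen with earlier results of these data known. All 10 are named, as are the 2 highest and 2 lowest called genes among the other complement genes in the gonadal, castration, ovariectomy and chromosomal effects (mean log2 CPM of at least 0), and the 3 genes with the highest correlation to C4a and to C6 on the log2 CPM scale (prior count 2). Further complement genes were named by role after their values were seen. Some listed genes, 1 of them named by this rule, enter the counts but are not reported here. Promoters are from RefSeq (GRCm38.p6). Levels per kilobase are CPM divided by exonic length.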

Additional observations from a re-analysis of the deposited data

Results flagged for a closer look

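In 6 of the 80 sets of 6 mice (10 genes in 8 groups), 1 mouse stood far from the other 5 by Dixon's test, where about 4 would do so by chance at 1 in 20. C4a was at 27.0 CPM in XX Te GDX mouse 69358, with the other mice of its group between 7.32 and 13.3 CPM, and at 77.4 CPM in XX Te Intact mouse 95271, with the others between 20.3 and 39.8 CPM. C4b was at 2428 CPM in XX Ov GDX mouse 24126, with the others between 1372 and 1596 CPM, and at 1138 CPM in XX Te Intact mouse 11587, with the others between 658 and 835 CPM. Hc was at 1588 CPM in the same XX Ov GDX mouse 24126, with the others between 933 and 1118 CPM. Mbl2 was at 335 CPM in XY Te GDX mouse 59091, with the others between 422 and 455 CPM.

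In XX Ov GDX mouse 24126 the summed level of 15 acute phase genes was 36038 CPM, the highest of its group, and in XX Te GDX mouse 69358 it was 26974 CPM, also the highest of its group. The other flagged mice were not the highest of their groups. XX Te Intact mouse 95271 had 17748 CPM (rank 2), XX Te Intact mouse 11587 had 15809 CPM (rank 4) and XY Te GDX mouse 59091 had 26466 CPM (rank 3). Without XX Te Intact mouse 95271 the gonadal value of C4a was -3.04 on the log2 scale, and 7 of 10 genes were called.

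The response to castration differed from that to ovariectomy, by the test of the difference in edgeR, for 5 genes. This difference equals the gonadal effect minus the former-gonad effect and is not separate evidence from the gonadal effect. The differences on the log2 scale were -2.97 for C4a, -2.05 for C6, -1.31 for C8a, -0.82 for C9 and 0.45 for Mbl2. The call of Mbl2 was lost with no filter on low counts, with length and GC offsets and without any one of 4 mice.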

How the results depend on the processing

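Of the 32 log2 fold changes of the 10 genes past the threshold in the 7 comparisons, the alternatives other than leaving out a mouse gave 247 further values, of which 228 had the same sign and call, 18 the same sign without the call and 1 the opposite sign. No paired analysis was possible because each mouse has its own identifier and no number is shared between groups. The chromosomal comparison called 4 of 10 genes, and 2 with library totals in place of TMM scaling, 2 with no filter beyond 1 count, 2 with length and GC offsets and 1 with a fold change above 1.5 also required. Without one mouse at a time it called 2 to 4 genes, and the chromosomal difference between GDX and Intact mice called 0 to 1. The other counts ran from 7 to 8 (gonadal), 8 to 9 (castration), 7 to 7 (ovariectomy), 4 to 6 (castration minus ovariectomy) and 0 to 0 (former gonad). Calls lost were those of Mbl2 (adjusted p 0.079 to 0.39 under 6 alternatives) and C4a (0.062 to 0.086 under 3) in the chromosomal comparison, C8a after castration (0.052 to 0.33 under 5), Cfb (adjusted p = 0.075 with a surrogate variable) and C4a (adjusted p = 0.49 with length and GC offsets) after ovariectomy, and Mbl2 in castration minus ovariectomy (0.094 with no filter, 0.24 with length and GC offsets). Calls gained were those of Mbl2 after castration with library totals (log2 0.23, adjusted p = 0.013) or length and GC offsets (0.43, adjusted p = 0.00079), and of C8b in castration minus ovariectomy with a surrogate variable (-0.90, adjusted p = 0.026) or those offsets (-0.85, adjusted p = 0.044). The same difference was called for Hc without XX Ov Intact mouse 69572 (-0.39, adjusted p = 0.036) and for C8b without XX Te Intact mouse 14614 (-0.86, adjusted p = 0.031), and lost for Mbl2 without any one of 4 mice (adjusted p 0.050 to 0.075).

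Signs turned mostly in values near 0. With library totals, C3, Hc and C9 were at -0.057, -0.057 and -0.029 in the chromosomal comparison, Hc at -0.12 in its difference between cohorts, and C6 and C9 at 0.21 and 0.22 after ovariectomy. With no filter beyond 1 count, Cfb was at -0.013 (gonadal), and Hc at -0.0050 (chromosomal) and -0.022 (chromosomal by GDX). With at least 10 counts in every mouse, C6 and C9 were at 0.035 and 0.021 after ovariectomy. With the DESeq2 Wald test, Cfb was at -0.00090 (gonadal) and C6 at 0.00028 (ovariectomy). With only the compared groups in the fit, which gives no separate fit for the chromosomal comparison and the differences of effects, Cfb was at -0.0036 (gonadal) and C6 at 0.012 (ovariectomy). With 1 surrogate variable, Cfb was at -0.015 (former gonad) and 0.17 (castration minus ovariectomy), C9 at 0.23 (ovariectomy), and C3 and C4b at 0.033 and 0.13 (chromosomal by GDX). With length and GC offsets, chosen after seeing the data and known for 89.8% of tested genes, Mbl2, C6 and C9 were at 0.15, 0.099 and 0.51 after ovariectomy and Cfb at 0.0036 in castration minus ovariectomy. The cause was not tested.

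Without one mouse at a time, values that crossed 0 ran from -0.096 to 0.10 for Cfb (gonadal), from -0.090 to 0.0030 for C3, -0.048 to 0.054 for C4b and -0.043 to 0.078 for Cfb (former gonad), from -0.017 to 0.092 for C3 and -0.019 to 0.059 for Hc (chromosomal), from -0.068 to 0.074 for C6, -0.036 to 0.13 for C8b and -0.11 to 0.041 for C9 (ovariectomy), and from -0.022 to 0.070 for Mbl2 (castration). They ran from -0.11 to 0.092 for Cfb (castration minus ovariectomy) and from -0.22 to 0.0033 for C3, -0.21 to 0.071 for C4b and -0.057 to 0.11 for Hc (chromosomal by GDX). The C4a share kept its sign on the logit scale and without any one mouse. Depth limits Cfb and C4a, with medians of 64 and 130 reads per mouse.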
